A study of Mus musculus with 24 samples.

Results

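PERK signalling switched on without endoplasmic reticulum (ER) stress was set against ER stress in cells whose eIF2α cannot be phosphorylated. The comparison took the change caused by AP in Tg(Fv2E-PERK) mouse embryonic fibroblasts and subtracted from it the change caused by tunicamycin in eIF2a A/A fibroblasts. It used 8 of the 24 arrays of the series, 2 in each of 4 groups, all from the latest of 3 scan runs. Fv2E-PERK cells carry a transgene that fuses the kinase domain of PERK to a part through which a dimerizing compound can join the molecules. They were untreated or had received AP for 12 h, and the labels name AP only by that abbreviation, with no dose. eIF2a A/A cells carry alanine on both alleles of eIF2α where stress kinases would phosphorylate a serine. They were untreated or had received tunicamycin, at 2 µg per mL by the shared protocol and for 12 h by the label. Both lines were grown with serum. The promoter of the transgene, the state of the cells' own Perk gene and whether either line grew from 1 clone are not given in the sources used here.

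PERK is a kinase in the ER membrane that senses unfolded proteins and phosphorylates eIF2α. General protein synthesis then slows, while translation of the mRNA of the transcription factor ATF4 rises. ATF4 turns on genes for amino acid synthesis and uptake, tRNA charging and the stress factors CHOP, ATF3 and TRB3, a programme known as the integrated stress response (ISR). ER stress also activates IRE1, which splices the mRNA of XBP1, and ATF6, and these act mainly on chaperone, glycosylation and ER-associated degradation genes. Tunicamycin blocks N-glycosylation and engages all of these branches, of which the eIF2α branch ends at its substrate in A/A cells.

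The arms differed in cell line, agent and eIF2α genotype together, so these cannot be told apart. Each line lay on a slide of its own, which cannot be told apart from the line either. Nothing in the labels names separate cultures as the source of the replicates, so the p-values rest on a spread between samples that may be technical alone. Of 13753 genes tested, 9068 (65.9%) already differed between the untreated lines. Xist, which silences an X chromosome in female cells, was well above background only on the A/A arrays, and Y-linked Ddx3y and Eif2s3y only on the Fv2E-PERK arrays. Y-linked Kdm5d and Uty were not well above background on any array of either line. Of 16 fibroblast markers, 12 to 14 were well above background on both arrays of each group, while Lum in all 4 groups and Fap in 3 were not. Other lists held 12 muscle, 11 epithelial, 9 endothelial, 9 haematopoietic, 9 neural, and 11 fat or bone markers. In each list 3 to 7 were detected on both arrays of a group, with 7 of the 9 neural markers in untreated A/A cells. Detection alone therefore does not exclude other cell types. Myod1, Cdh1, Cdh5, Ptprc, Neurod1 and Adipoq were not detected on both arrays of any group. A level is the log2 of a probe's signal divided by the 75th percentile of its array, and a change is a difference of mean levels ± SE.

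AP and tunicamycin changed similar numbers of genes in the respective lines, but the directions of change had little in common. In a limma fit of the 8 arrays, 4925 genes (35.8%) passed an adjusted p of 0.05 with AP, 3136 higher and 1789 lower. With tunicamycin in A/A cells 5124 genes (37.3%) passed, 2711 higher and 2413 lower. The difference between the responses itself passed for 5395 genes (39.2%), of which 3067 (22.3%) changed more towards higher levels with AP and 2328 (16.9%) with tunicamycin. The AP side held 56.8% of these calls, and 49.9% after quantile normalization. Of the 4925 genes called with AP, 2160 also passed with tunicamycin, where 37.3% of all genes did. Among these 2160 genes, 1090 moved the same way. That is 22.1% of the genes called with AP and 21.3% of those called with tunicamycin. The other 1070 moved in opposite directions. Across all genes tested the changes of both arms correlated with a Pearson r of 0.0286 and a Spearman rho of 0.0154, where genes are not independent replicates. The arms share no array.

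A gene was placed in only 1 arm when it passed there, did not pass in the other, and the difference of responses passed as well. By that definition 1793 genes changed only with AP, 1167 higher and 626 lower. Another 1911 changed only with tunicamycin in A/A cells, 936 higher and 975 lower. Of the 1090 genes that moved the same way, the difference of responses did not pass for 783, while 143 moved further with AP and 164 further with tunicamycin. A further 972 genes passed with AP and 1053 with tunicamycin without a difference that passed, and they were assigned to no arm. Asking also for a 2-fold change in each call left 685 genes (4.98%) with AP, 915 (6.65%) with tunicamycin and 1486 (10.8%) for the difference, with 397 only with AP, 530 only with tunicamycin, 48 in both and 63 in opposite directions.

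These counts depend on a small spread. The median SD per gene within these 4 groups was 0.054 to 0.0873 on the log2 scale. It was 0.144 to 0.306 in the Perk-null and Atf4-null groups, each also within 1 scan run. In the wild-type groups it was 0.335 and 0.364, which includes any shift between their 2 scan runs. A fit over all 24 arrays, which takes 1 spread per gene from every group, called 602 genes (4.38%) with AP, 735 (5.34%) with tunicamycin and 571 (4.15%) for the difference. The 24-array fit gives the same changes as the 8-array fit, because the same arrays supply them, and only their SE and p-values differ. Passing in both fits is therefore no second measurement of a change. Of the calls with 24 arrays, 596, 731 and 569 were also made in the 8-array fit. The 24-array fit left 206 genes only with AP, 241 only with tunicamycin, 35 in both and 28 opposite. The examples below are mostly genes that pass in both fits, and a call that is lost with 24 arrays is said to be so.

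**Figure D1:**
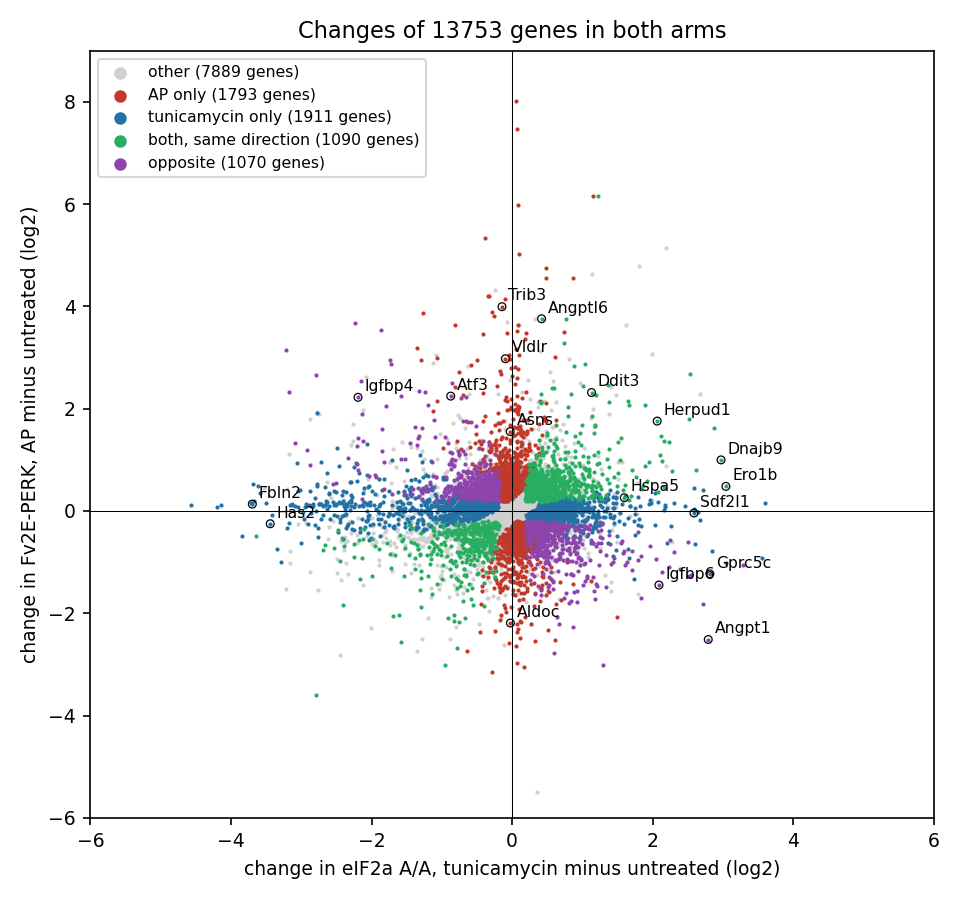
Log2 change with tunicamycin in eIF2a A/A cells (x axis) against log2 change with AP in Fv2E-PERK cells (y axis) for 13753 genes, coloured by class, with 2 arrays per group. The red cloud of 1793 genes changed only with AP lies along the vertical axis and the blue cloud of 1911 genes changed only with tunicamycin along the horizontal one, while 1090 genes fall in the same-direction quadrants and 1070 in the opposite ones. Points of genes not above background in an arm are drawn at their signal, which is no measured change.

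The PERK-only arm raised the stress factors of the ISR. Of 28 genes of stress transcription factors and ISR signalling tested, 20 rose with AP, against 22.8% of all genes, and 12 rose and 3 fell with tunicamycin in A/A cells, against 19.7% and 17.5%. The median change of the list was 0.853 with AP and 0.154 with tunicamycin, beside 0.077 and 0.011 over all genes. In the 24-array fit 11 rose with AP and 4 with tunicamycin, and for 8 the difference of responses passed, all higher with AP.

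Trib3, which encodes the pseudokinase TRB3 that restrains ATF4 and AKT signalling, read 2.34 and 2.35 in untreated Fv2E-PERK cells and 6.36 and 6.32 with AP. In A/A cells it read 1.70 and 2.16 untreated and 1.84 and 1.73 with tunicamycin. Only the AP arrays stood apart. The changes were 3.995 ± 0.15 and -0.14 ± 0.15, and their difference of 4.14 ± 0.21 passed (limma, adjusted p = 0.000221).

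Ppp1r15a encodes GADD34, the subunit that directs a phosphatase back to eIF2α. It rose from 3.02 and 2.95 to 5.20 and 5.01 with AP and from 3.06 and 3.08 to 3.46 and 3.49 with tunicamycin. Treated arrays lay above untreated ones in both lines, with changes of 2.12 ± 0.08 and 0.41 ± 0.08. The difference passed in both fits, while the smaller rise in A/A cells did not pass with 24 arrays (limma, adjusted p = 0.25).

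Ddit3, the gene of the death-promoting factor CHOP, responded in both arms. It went from -0.05 and -0.32 to 2.14 and 2.12 with AP, a 4.98-fold rise, and from 0.22 and 0.36 to 1.41 and 1.44 with tunicamycin, a 2.19-fold rise. The AP change exceeded the other by 1.19 ± 0.15 (limma, adjusted p = 0.00255, and 0.0261 with 24 arrays). Gadd45a, a growth-arrest gene, rose by 2.87 ± 0.11 and 1.04 ± 0.11, and with 24 arrays the second rise did not pass (limma, adjusted p = 0.0863) while the difference did (0.0383). Chac1, whose product degrades glutathione, rose by 2.84 ± 0.11 and 0.88 ± 0.11. Its second rise and its difference of 1.96 ± 0.16 did not pass with 24 arrays (limma, adjusted p = 0.26 and 0.0694).

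Atf3, a stress-induced repressor and activator, split the arms. Its level was 0.03 and 0.01 without and 2.28 and 2.25 with AP, but -0.56 and -0.53 without and -1.51 and -1.33 with tunicamycin in A/A cells. Each pair of treated arrays lay clear of its untreated pair, above it with AP and below it with tunicamycin. The difference of 3.12 ± 0.10 passed in both fits, whereas the fall of 0.87 in A/A cells did not pass with 24 arrays (limma, adjusted p = 0.268).

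Atf4 mRNA itself moved less than these genes. It read 7.48 and 7.59 untreated and 8.36 and 8.32 with AP, a change of 0.81 ± 0.09, and -0.06 ± 0.09 in A/A cells. The difference of 0.87 ± 0.13 passed with 8 arrays (limma, adjusted p = 0.00497) and not with 24 (0.783), a fit whose spread for Atf4 includes the Atf4-null arrays. Eif2ak3, the gene of PERK, rose by 1.12 ± 0.07 with tunicamycin and by 0.29 ± 0.07 with AP, and with 24 arrays neither the AP rise nor the difference passed (limma, adjusted p = 0.634 and 0.234). The labels cannot be checked on these genes, since the serine change need not alter the amount of transcript and the probe's relation to the transgene is not given in the sources used here.

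Vldlr, a lipoprotein receptor gene, changed only with AP. It read -2.01 and -1.92 untreated and 0.97 and 1.06 with AP, a 7.88-fold rise, and -0.30, -0.22, -0.40 and -0.32 on the A/A arrays. Gdf15, which encodes a stress hormone that curbs appetite, rose by 4.21 ± 0.11 with AP, from untreated arrays of which 1 of 2 was above background, and changed by -0.32 ± 0.11 with tunicamycin. Fgf21, a metabolic stress hormone, rose by 3.87 ± 0.81 with AP and was not above background on 3 of the 4 A/A arrays. The difference of responses passed in both fits for all 3 genes.

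**Figure D2:**
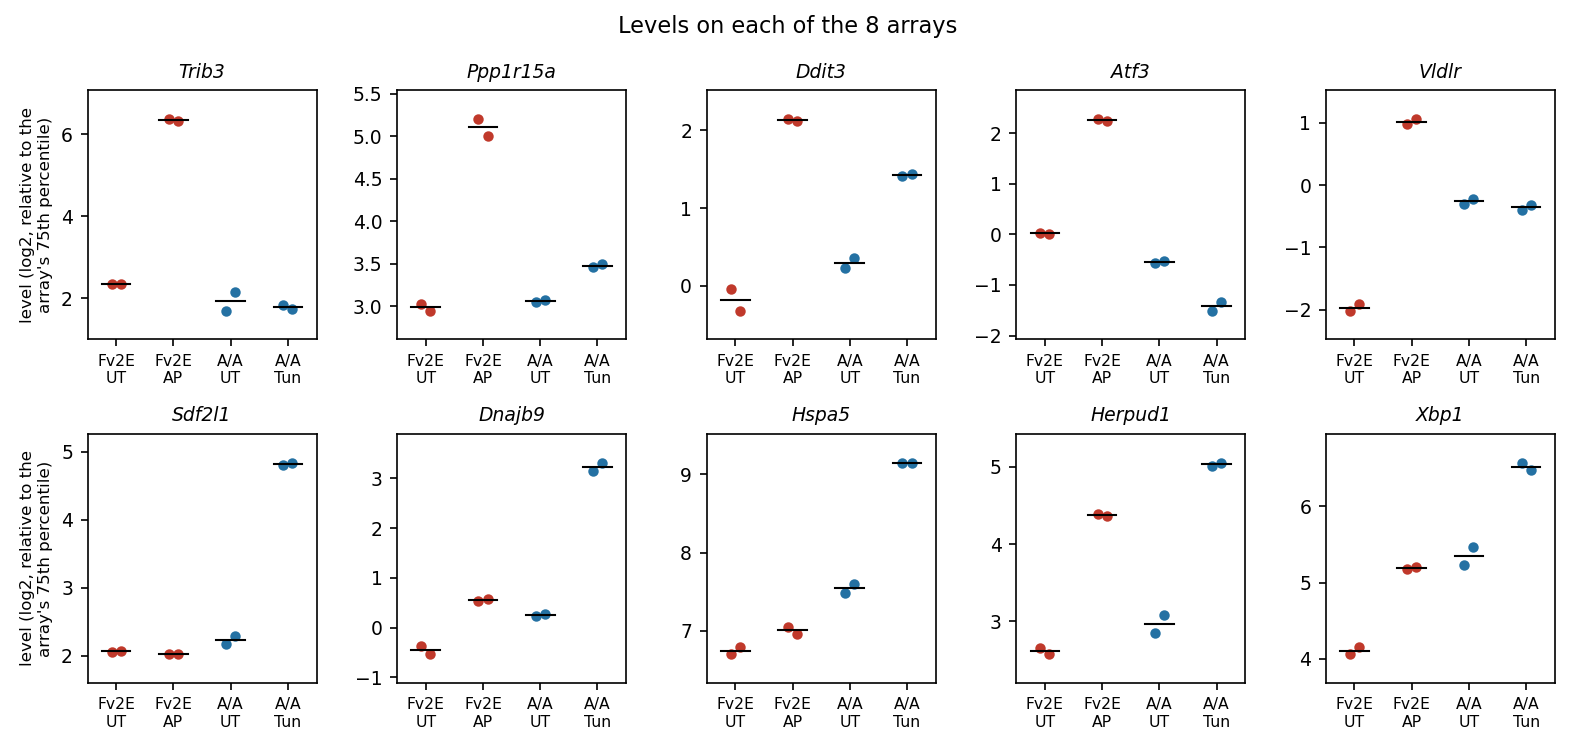
Log2 level of 10 genes, relative to the array's 75th percentile, on each of the 8 arrays (points, red for Fv2E-PERK and blue for eIF2a A/A) with group means (lines). Trib3 and Vldlr stand high only on the 2 AP arrays, Sdf2l1 only on the 2 tunicamycin arrays, and Herpud1 and Xbp1 rose in both lines. The vertical axes differ between panels.

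Genes that supply and charge amino acids followed the AP arm. Over all genes tested, 22.8% rose and 13% fell with AP, and 19.7% rose and 17.5% fell with tunicamycin. Of 21 amino acid and one-carbon synthesis genes, 15 rose and 2 fell with AP, and 2 rose and 5 fell with tunicamycin in A/A cells. Of 20 cytosolic aminoacyl-tRNA synthetases, which load amino acids onto tRNA, 14 rose with AP, while 1 rose and 7 fell with tunicamycin. The median changes were 0.528 and 0.639 with AP and -0.027 and -0.155 with tunicamycin. With 24 arrays 8 and 6 genes rose with AP, and the difference passed for 5 and 1, all higher with AP.

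Asns makes asparagine and is a standard ATF4 target. It rose from 5.44 and 5.54 to 7.06 and 7.02 with AP and read 5.61, 5.78, 5.73 and 5.61 on the A/A arrays, where untreated and treated values overlapped. The AP change was 1.55 ± 0.09 and the difference 1.58 ± 0.12 (limma, adjusted p = 0.000654, and 0.0195 with 24 arrays). Psph, for the last step of serine synthesis, rose by 1.49 ± 0.09 with AP and changed by 0.13 ± 0.09 with tunicamycin.

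Pck2, the mitochondrial form of PEPCK, rose by 1.62 ± 0.10 with AP and changed by 0.06 ± 0.10 with tunicamycin. Gpt2, an alanine aminotransferase gene, rose by 1.53 ± 0.06 against 0.14 ± 0.06. Cth, which makes cysteine from cystathionine, rose in both arms, by 2.13 ± 0.08 and 0.41 ± 0.08, and the second rise did not pass with 24 arrays (limma, adjusted p = 0.568). The difference of responses passed in both fits for these 3 genes and Psph.

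Tars, the threonyl-tRNA synthetase gene, rose from 5.74 and 5.85 to 7.09 and 7.09 with AP and fell from 5.34 and 5.55 to 5.18 and 5.04 with tunicamycin. The difference of 1.63 ± 0.13 passed in both fits (limma, adjusted p = 0.000763 and 0.00578), and the fall did not pass with 24 arrays (0.439). It was the 1 synthetase whose difference passed there.

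Of 16 amino acid transporters tested, 11 rose with AP and 5 with tunicamycin, against 22.8% and 19.7% of all genes, and 1 fell in each arm. The difference passed for 7 with AP higher and for 1, Slc3a2, with tunicamycin higher. Slc1a5, a glutamine carrier, rose from 3.07 and 2.86 to 3.64 and 3.71 with AP and fell from 2.38 and 2.32 to 1.61 and 1.65 with tunicamycin, and the changes of 0.71 ± 0.09 and -0.72 ± 0.09 passed in both fits. Slc3a2, the heavy chain shared by several exchangers, went the other way in size, with 0.99 ± 0.10 against 2.13 ± 0.10. Slc6a9, a glycine transporter, rose in both arms in both fits, by 2.15 ± 0.07 and 1.65 ± 0.07, and the difference passed with 8 arrays but not with 24 (limma, adjusted p = 0.618). Slc7a11, the cystine exchanger subunit, was not well above background in untreated Fv2E-PERK cells or on any A/A array and was at least 1.49-fold higher with AP. Folds given as "at least" set the brighter group against the lowest signal that was well above background.

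Mitochondrial quality control moved with the same arm. Of 20 mitochondrial protease and chaperone genes, 9 rose with AP and 5 fell with tunicamycin, against 22.8% and 17.5% of all genes. Lonp1, the matrix protease, rose by 0.99 ± 0.07 with AP and changed by 0.07 ± 0.07 with tunicamycin, a difference of 0.91 ± 0.10 that passed in both fits. Hspa9, the mitochondrial HSP70, rose by 0.72 ± 0.06 and fell by 0.41, and that fall did not pass with 24 arrays (limma, adjusted p = 0.28). Of 22 translation initiation genes, 10 rose with AP and 8 fell with tunicamycin, of which 1 each passed with 24 arrays. Eif2b3, a subunit of the exchange factor that phosphorylated eIF2α inhibits, changed by 0.63 ± 0.07 and -0.78 ± 0.07, and with 24 arrays the fall passed and the rise did not (limma, adjusted p = 0.0319 and 0.0925).

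Several genes outside these lists rose steeply with AP. Car6, a secreted carbonic anhydrase, read -6.67 and -5.74 untreated, where it was not well above background, and 1.86 and 1.76 with AP, at least 84.8-fold higher. Akr1b7, an aldose reductase relative, was at least 19.1-fold higher with AP. Neither gene was well above background on any A/A array, so no change was measurable there.

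Cox6a2, the heart and muscle form of a cytochrome oxidase subunit, rose from -1.66 and -1.75 to 3.65 and 3.61 and was likewise not above background in A/A cells. Soat2, which esterifies cholesterol, rose by 6.17 ± 0.19 with AP and by 1.22 ± 0.19 with tunicamycin, with 1 of the 2 untreated arrays above background in each line. Angptl6, an angiopoietin-like gene, rose by 3.76 ± 0.06 and 0.42 ± 0.06. The rises with AP of these 5 genes passed in both fits, while those of Soat2 and Angptl6 with tunicamycin did not pass with 24 arrays (limma, adjusted p = 0.0665 and 0.601).

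Genes lower only with AP included those of cholesterol synthesis and the extracellular matrix. Of 27 cholesterol synthesis and uptake genes, 23 fell with AP (13% of all genes did). With tunicamycin 4 rose and 3 fell (19.7% and 17.5% of all genes did). The median was -0.701 with AP and 0.018 with tunicamycin. Acat2, for the first step from acetyl-CoA, fell by 0.99 with AP from 0.06 and -0.07 to -0.88 and -1.12 and changed by 0.40 ± 0.13 in A/A cells. Fdps, which makes farnesyl diphosphate, fell by 1.14 and changed by -0.01 ± 0.08. With 24 arrays the falls of 2 of the 27 genes passed, that of Acat2 among them (limma, adjusted p = 0.00884), and that of Fdps did not (0.228).

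Of 35 extracellular matrix genes, 22 fell and 1 rose with AP, and 10 fell and 1 rose with tunicamycin. Over all genes 13% fell with AP and 17.5% with tunicamycin. Col3a1, a fibrillar collagen, went from 2.17 and 2.00 to -0.14 and -0.21 with AP and from 2.32 and 2.31 to 3.04 and 3.32 with tunicamycin. The difference was -3.12 ± 0.16 with 8 arrays. With 24 neither it nor the change of either arm passed (limma, adjusted p = 0.115 for the difference, 0.111 with AP and 0.623 with tunicamycin), and 2 of the 35 genes fell and 1 rose with AP. Lox, which crosslinks collagen and elastin, was at least 8.85-fold lower with AP, in both fits.

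The fibroblast marker list moved in the same direction in that arm. Its summed signal, in units of the array's 75th percentile, was 476 to 490 in untreated and 230 to 234 in AP-treated Fv2E-PERK cells. It was 947 to 965 and 968 to 977 in A/A cells. Of its 14 genes tested, 8 fell with AP (13% of all genes did), and Col1a1 and Dcn stand in both lists. Fewer cells of a type and less RNA per cell cannot be told apart in such samples. The part of these markers in the matrix result was not tested.

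Aldoc, a glycolytic aldolase gene, fell with AP from 2.92 and 2.73 to 0.64 and 0.64 and read -0.18, -0.05, -0.03 and -0.24 on the A/A arrays. Its difference of -2.17 ± 0.15 passed in both fits (limma, adjusted p = 0.000456 and 0.000113). Stra6, a receptor for the retinol carrier, was at least 3.07-fold lower with AP and was not above background in A/A cells.

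Interferon-stimulated genes rose with AP in the 8-array fit only. Of 26 tested, 19 rose and 1 fell with AP, 4 rose and 3 fell with tunicamycin, and the medians were 1.107 and 0.019. Over all genes 22.8% rose with AP and 19.7% with tunicamycin. Rtp4, a chaperone for receptor traffic, read 1.73 and 1.57 untreated and 3.23 and 3.15 with AP. Irf9, which binds DNA in the interferon-activated complex, rose by 1.36 ± 0.10 with AP and fell by 0.42 with tunicamycin, and Usp18, which restrains interferon signalling, rose by 3.20 ± 0.48 with AP. With 24 arrays 0 of the 26 passed in either arm, while 4 were higher with AP and 2 higher with tunicamycin at an unadjusted limma p under 0.05. Rtp4 and Irf9 were chosen after their values were seen.

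The acute-phase genes Saa3 and Lcn2 shared that pattern. Saa3 was at least 59.4-fold higher with AP and not above background in A/A cells, and Lcn2 rose by 3.48 ± 0.12. Their AP changes did not pass with 24 arrays (limma, adjusted p = 0.191 and 0.18).

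Tunicamycin in A/A cells raised the folding machinery of the ER. Of 30 ER chaperone and folding enzyme genes, 27 rose with tunicamycin, while 7 rose and 2 fell with AP, against 19.7%, 22.8% and 13% of all genes. The median change was 1.233 with tunicamycin and 0.062 with AP. For 23 genes the difference passed with tunicamycin higher, and for 1 with AP higher. With 24 arrays 21 rose with tunicamycin and 1 with AP, and the difference passed for 18, all higher with tunicamycin.

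Sdf2l1, a partner of the ER chaperone BiP, read 2.06 and 2.08 untreated and 2.03 and 2.03 with AP. In A/A cells it rose from 2.18 and 2.29 to 4.81 and 4.84, a 6.02-fold rise. The 2 AP arrays lay just below the untreated ones, and the tunicamycin arrays stood far above all others. The changes were -0.04 ± 0.06 and 2.59 ± 0.06, and the difference of -2.63 ± 0.09 passed (limma, adjusted p = 8.98e-05).

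Hspa5, the gene of BiP itself, rose in both arms but unequally. It went from 7.49 and 7.60 to 9.14 and 9.14 with tunicamycin and from 6.71 and 6.79 to 7.05 and 6.97 with AP. These are changes of 1.60 ± 0.07 and 0.26 ± 0.07, and the smaller one did not pass with 24 arrays (limma, adjusted p = 0.347). Dnajb9, the BiP cochaperone ERdj4, rose from 0.24 and 0.28 to 3.15 and 3.31 with tunicamycin and from -0.37 and -0.53 to 0.53 and 0.57 with AP, and both rises passed in both fits. Ero1b, an oxidase for disulfide formation, rose by 3.04 ± 0.07 with tunicamycin and 0.48 ± 0.07 with AP, and the AP rise did not pass with 24 arrays (limma, adjusted p = 0.363).

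Creld2, a disulfide isomerase relative, rose from 5.76 and 5.83 to 7.84 and 7.89 with tunicamycin and read 5.76 and 5.75 without and 5.97 and 5.91 with AP. Manf, a secreted ER stress protein, rose by 1.97 ± 0.07 with tunicamycin and changed by 0.15 ± 0.07 with AP. With tunicamycin Hsp90b1 (GRP94) rose by 1.31 ± 0.09 and Dnajc3, the ER cochaperone known as P58IPK, by 1.46 ± 0.07. Their changes with AP were -0.01 ± 0.09 and 0.06 ± 0.07. Hsp90b1, Dnajc3 and the disulfide isomerase gene Pdia6 were chosen after their values were seen. Pdia6 rose by 1.27 ± 0.07 with tunicamycin and fell by 0.25 with AP, a fall that did not pass with 24 arrays (limma, adjusted p = 0.319). Creld2, Manf, Hsp90b1 and Dnajc3 did not pass with AP in either fit. The difference passed in both fits for all 5 of these genes.

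Degradation and export genes followed. Of 28 ER-associated degradation genes, 19 rose with tunicamycin and 8 with AP. Of 43 genes of ER translocation and secretory traffic, 28 rose and 1 fell with tunicamycin, and 6 rose and 6 fell with AP. Over all genes 19.7% rose with tunicamycin, and 22.8% rose and 13% fell with AP. Syvn1, the HRD1 ubiquitin ligase, rose from 5.04 and 5.10 to 6.89 and 6.91 with tunicamycin and read 4.57, 4.49, 4.65 and 4.60 on the Fv2E-PERK arrays. Edem1, a lectin for misfolded glycoproteins, rose by 1.43 ± 0.12 and Spcs2, a signal peptidase subunit, by 1.75 ± 0.07, with AP changes of 0.06 ± 0.12 and 0.06 ± 0.07. Selenos, an adaptor of that machinery, rose by 2.08 ± 0.06 and 0.36 ± 0.06, of which the AP rise did not pass with 24 arrays (limma, adjusted p = 0.173). With 24 arrays the difference passed for 7 and 6 genes of these lists, all higher with tunicamycin, these 4 among them.

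The other lists were counted the same way. Over all genes 22.8% rose and 13% fell with AP, and 19.7% rose and 17.5% fell with tunicamycin. Some counts of these lists, such as those of cell cycle genes that rose, lie near these shares. Of 26 autophagy genes, 16 rose with tunicamycin and 11 with AP, and 1 fell in each arm. Of 30 glycolysis and hypoxia genes, 3 rose and 11 fell with AP, 11 rose and 4 fell with tunicamycin, and 7 were opposite. Of 23 genes of the NRF2 oxidative response, 1 rose and 6 fell with AP, and 8 rose and 1 fell with tunicamycin. Of 24 p53 targets, 11 rose and 5 fell with AP, and 5 rose and 7 fell with tunicamycin. Of 26 apoptosis regulators, 3 rose and 8 fell with AP, and 9 rose and 4 fell with tunicamycin.

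Of 20 cytosolic heat shock genes, 3 rose and 5 fell with AP, and 4 rose and 1 fell with tunicamycin. Of the inflammatory cytokines and chemokines, 10 of 16 fell with AP and 8 with tunicamycin, and 3 and 2 rose, with medians of -0.646 and -0.408. Of 15 angiogenic growth factors, 4 rose and 6 fell with AP, and 4 rose and 7 fell with tunicamycin. Cell cycle and DNA replication genes had medians of 0.071 and 0.076, with 6 of 30 higher in each arm and 3 and 1 lower. With 24 arrays at most 3 genes of any of these lists rose in an arm, and at most 4 fell.

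**Figure D3:**
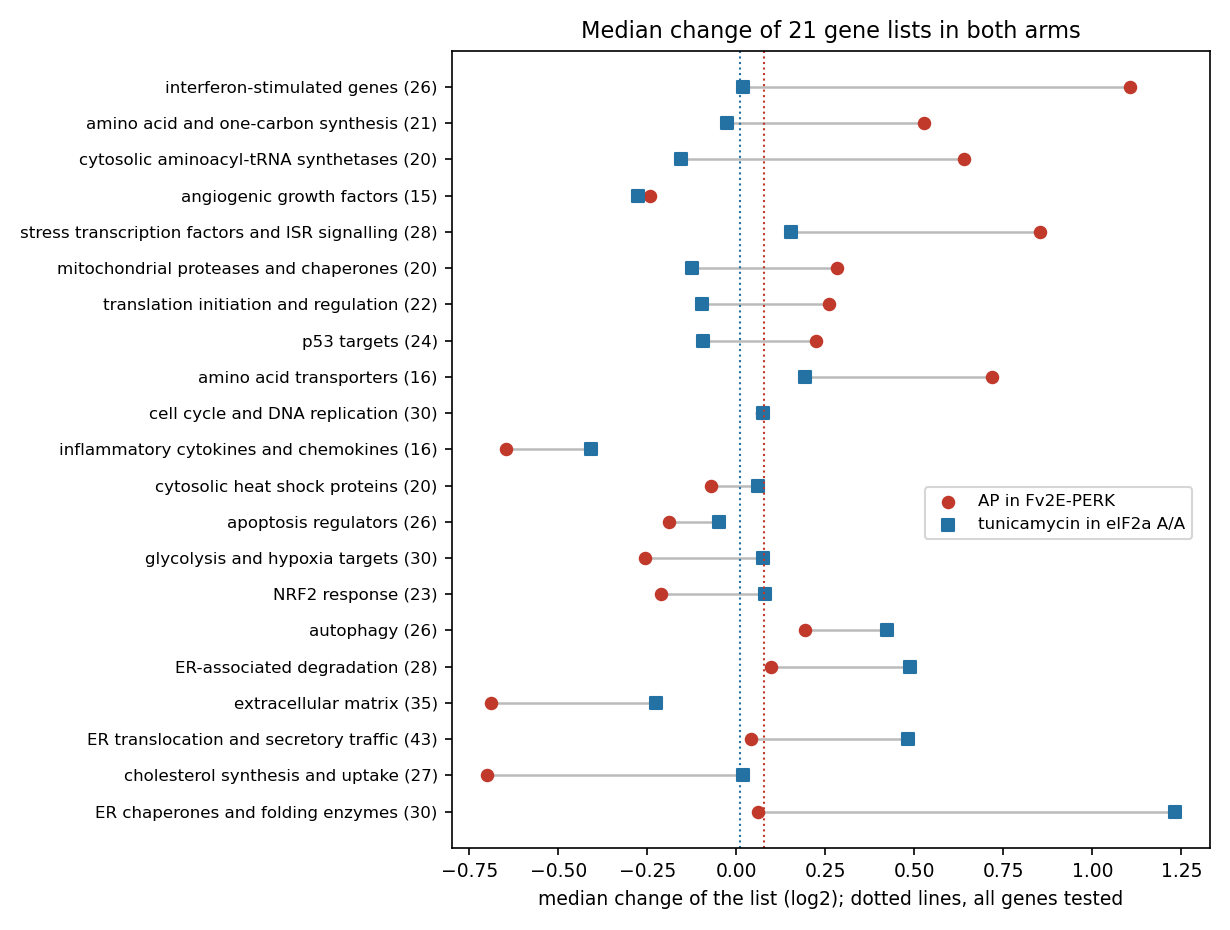
Median log2 change of 21 gene lists (number of genes tested in brackets) with AP in Fv2E-PERK cells (red circles) and tunicamycin in eIF2a A/A cells (blue squares), with dotted lines at the medians of all genes tested (0.077 and 0.011). ER chaperones lie at 0.062 and 1.233, and the stress factor, amino acid synthesis and synthetase lists lie further right with AP. The interferon list, at 1.107 with AP, had 0 calls in the 24-array fit.

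Outside the ER, genes higher only with tunicamycin included receptors and regulators of signalling. Gpr146, an orphan receptor gene, rose from -3.22 and -3.21 to -0.53 and -0.55 in A/A cells and changed by -0.17 ± 0.11 with AP. Rgcc, a cell cycle regulator responsive to complement, rose by 2.59 ± 0.08 and changed by 0.03 ± 0.08. Mrgprf, another receptor gene, rose by 2.60 ± 0.23 and changed by -0.65 ± 0.23. The difference passed in both fits for these 3 genes.

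Genes lower only with tunicamycin included some matrix and growth factor signalling genes. Fbln2, a matrix glycoprotein, fell from 6.31 and 6.30 to 2.61 and 2.61, a 13.0-fold fall, and read 3.95 and 3.89 without and 4.10 and 4.01 with AP. Has2, a hyaluronan synthase, fell by 3.44, from 2.34 and 2.53 to -0.97 and -1.05, and changed by -0.25 ± 0.15 with AP. Angptl2 fell by 2.63, and Smad7, which restrains TGFβ signalling, fell by 2.31, with AP changes of 0.03 ± 0.11 and 0.02 ± 0.08. All 4 untreated A/A levels lay above those of untreated Fv2E-PERK cells, and all 4 differences passed in both fits.

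Some genes were in only 1 arm without a measured change in the other. Of the 349 genes at least 2-fold lower only with tunicamycin, 167 were not well above background on both arrays of either Fv2E-PERK group. Their AP change was therefore not measured. Among them, 138 were well above background on both untreated A/A arrays and on neither tunicamycin array. Of the 222 genes at least 2-fold higher only with AP, 82 were not well above background on both arrays of either A/A group, so their tunicamycin change was not measured. Over all genes, 192 were above background on both untreated A/A arrays and on no other array, against 50, 62 and 21 for untreated Fv2E-PERK, AP and tunicamycin. Counting a call only where the gene was measured in that arm gave 1801 genes only with AP, 1890 only with tunicamycin and 1028 opposite, an alternative added after the data were seen.

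Genes that changed the same way in both arms included several of ER homeostasis. Herpud1, which recruits degradation factors to the ER membrane, rose from 2.65 and 2.58 to 4.39 and 4.36 with AP and from 2.85 and 3.08 to 5.01 and 5.05 with tunicamycin. The changes were 1.76 ± 0.09 and 2.06 ± 0.09, and the difference of -0.31 ± 0.12 did not pass (limma, adjusted p = 0.0999), which does not show that they are equal. Xbp1 rose from 4.06 and 4.16 to 5.18 and 5.21 and from 5.23 and 5.47 to 6.57 and 6.47, by 1.09 ± 0.10 and 1.17 ± 0.10, with a difference of -0.09 ± 0.14 (adjusted p = 0.644). The array does not tell spliced from unspliced Xbp1.

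Ndrg1, a stress-responsive growth suppressor, rose by 2.08 ± 0.11 and 1.67 ± 0.11, and Alg12, a mannosyltransferase of N-glycan assembly, by 1.07 ± 0.15 and 1.01 ± 0.15. Fgf7, a fibroblast-derived growth factor for epithelia, was lower in both arms, from 1.98 and 1.97 to -0.03 and -0.13 with AP and from 4.07 and 4.25 to 2.50 and 2.44 with tunicamycin. All 5 genes passed in both arms in both fits, and with 24 arrays the difference passed for none of them, while with 8 that of Fgf7 did (-0.36 ± 0.11, limma, adjusted p = 0.0473).

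Of the 1070 genes that moved in opposite directions, 581 rose with AP and fell with tunicamycin, and 489 did the reverse. The 28 genes opposite in the 24-array fit were all opposite in the 8-array fit, which has the same changes and differs only in their SE and p-values.

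Igfbp4, which binds insulin-like growth factors, rose from -4.02 and -3.02 to -1.16 and -1.43 with AP and fell from 0.05 and -0.78 to -2.31 and -2.81 with tunicamycin. The changes of 2.22 ± 0.41 and -2.19 ± 0.41 passed in both fits, with a difference of 4.42 ± 0.58. Its relative Igfbp6 did the reverse. It fell from 3.71 and 3.65 to 2.29 and 2.17 with AP and rose from -1.46 and -1.49 to 0.57 and 0.66 with tunicamycin, a difference of -3.54 ± 0.10 (limma, adjusted p = 7.6e-05, and 0.000409 with 24 arrays).

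Cdsn, a cell adhesion gene of skin, rose from 1.23 and 1.13 to 3.55 and 3.47 with AP and fell from -0.67 and -0.57 to -1.95 and -1.77 with tunicamycin. Tmcc3, an ER membrane protein gene, changed by 1.28 ± 0.09 and -1.36 ± 0.09. Both passed in both arms in both fits.

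Angpt1, a ligand of the endothelial receptor TIE2, was at least 3.44-fold lower with AP, where it was not well above background, and rose from -2.06 and -1.81 to 0.89 and 0.82 with tunicamycin. Gstm1, a glutathione transferase gene, fell by 1.56 with AP and rose by 0.93 ± 0.09. Arhgap18, which inactivates RhoA, fell by 1.30 and rose by 1.15 ± 0.17. These 3 also passed in both arms in both fits.

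For other opposite genes the difference held in both fits but at least 1 arm did not. Vegfa, the endothelial growth factor, rose from 1.62 and 1.30 to 2.79 and 2.80 with AP and fell from 3.14 and 3.13 to 1.67 and 1.69 with tunicamycin. Its difference of 2.79 ± 0.15 passed with 24 arrays as well (limma, adjusted p = 0.0233), but the single arms did not (0.115 and 0.0771). Bmp4, a TGFβ family ligand, went from 2.90 and 2.87 to 1.70 and 1.59 with AP and from 1.45 and 1.63 to 4.08 and 4.10 with tunicamycin, and Bmf, a BH3-only death gene, changed by -1.14 ± 0.12 and 2.38 ± 0.12.

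Gprc5c, an orphan receptor gene, changed by -1.23 ± 0.07 and 2.81 ± 0.07, and Bnip3, which marks mitochondria for removal, by -0.56 ± 0.10 and 0.96 ± 0.10. For Bmp4, Bmf, Gprc5c and Bnip3 the rise with tunicamycin passed with 24 arrays, while the fall with AP did not (limma, adjusted p from 0.0781 to 0.179). Fbln5, an elastic fibre gene, passed in the AP arm in both fits, at 2.22 ± 0.10, and its fall of 0.66 with tunicamycin did not pass with 24 arrays (0.206). Fkbp14, a collagen prolyl isomerase gene of the ER, rose by 1.26 ± 0.11 with tunicamycin in both fits and fell by 0.51 with AP in the 8-array fit alone.

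**Figure D4:**
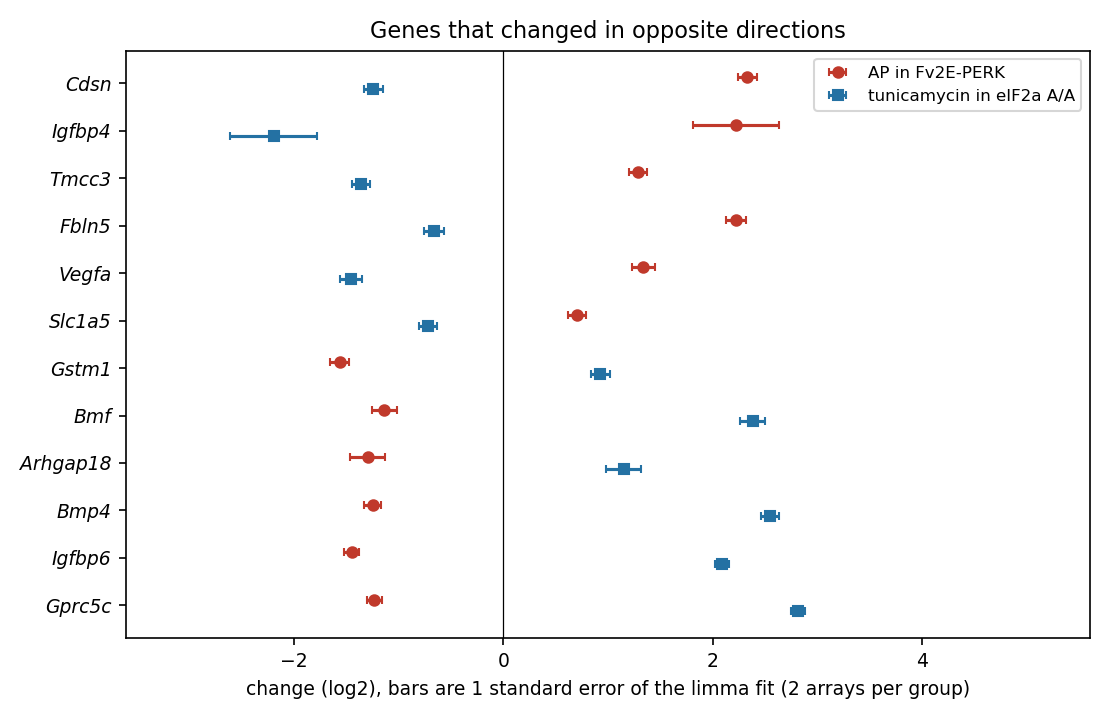
Log2 change ± SE of the limma fit (2 arrays per group) for 12 genes that moved in opposite directions, with AP in Fv2E-PERK cells as red circles and tunicamycin in eIF2a A/A cells as blue squares. The upper 6 genes rose with AP and fell with tunicamycin, and the lower 6 did the reverse. For Vegfa, Fbln5, Bmp4, Bmf and Gprc5c at least 1 arm did not pass in the 24-array fit.

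Promoters of the genes in each arm were read for elements known to bind the factors of these pathways. The stretches below are from RefSeq (mouse build GRCm38.p6). They are shown because they hold the matched elements within 250 bases before the start of genes called at least 2-fold higher in only 1 arm. The call of Slc7a11 rests partly on signals not well above background, and its measured bound is at least 1.49-fold. Each is written 5′ to 3′ on the strand of its gene. Capitals in the first 6 mark the core of the C/EBP-ATF element (CARE), TGATGNAA or TTNCATCA on the other strand, which ATF4 binds together with C/EBP factors. The Slc7a11 stretch holds a second CARE core, at positions -47 to -40 from the start, which is left in lower case. Atf3 (chr1:191183396-191183483, minus strand), Chac1 (chr2:119351009-119351096, plus), Slc7a11 (chr3:50443632-50443719, minus), Fgf21 (chr7:45615582-45615669, minus), Vldlr (chr19:27216780-27216867, plus) and Asns (chr6:7693210-7693272, minus) belong to the AP arm.
Atf3: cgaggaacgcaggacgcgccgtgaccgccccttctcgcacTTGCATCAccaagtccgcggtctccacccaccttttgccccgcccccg
Chac1: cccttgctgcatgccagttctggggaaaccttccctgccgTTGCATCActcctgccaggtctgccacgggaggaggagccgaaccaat
Slc7a11: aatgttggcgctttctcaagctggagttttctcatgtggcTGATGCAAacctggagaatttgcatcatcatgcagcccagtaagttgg
Fgf21: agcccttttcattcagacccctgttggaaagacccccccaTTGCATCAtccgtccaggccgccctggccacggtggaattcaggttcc
Vldlr: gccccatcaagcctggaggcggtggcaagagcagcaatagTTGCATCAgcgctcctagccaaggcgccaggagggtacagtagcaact
Asns: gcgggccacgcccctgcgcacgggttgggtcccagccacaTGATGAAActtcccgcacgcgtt

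In the 6 stretches of the tunicamycin arm, capitals mark the ER stress element (ERSE), which is CCAAT, 9 bases of any kind and CCACG, on either strand, whose CCACG part ATF6 and XBP1 bind next to NF-Y. They are Hspa5 (chr2:34771985-34772083, plus strand), Hsp90b1 (chr10:86705598-86705694, minus), Dnajc3 (chr14:118937787-118937885, plus), Syvn1 (chr19:6046492-6046575, plus), Creld2 (chr15:88819480-88819578, plus) and Pdia6 (chr12:17266451-17266549, plus).
Hspa5: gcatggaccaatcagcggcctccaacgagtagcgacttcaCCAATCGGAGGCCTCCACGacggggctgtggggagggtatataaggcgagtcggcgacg
Hsp90b1: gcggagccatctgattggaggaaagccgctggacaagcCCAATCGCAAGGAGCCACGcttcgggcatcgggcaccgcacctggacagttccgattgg
Dnajc3: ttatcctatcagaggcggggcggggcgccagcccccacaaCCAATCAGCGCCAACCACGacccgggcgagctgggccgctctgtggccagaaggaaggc
Syvn1: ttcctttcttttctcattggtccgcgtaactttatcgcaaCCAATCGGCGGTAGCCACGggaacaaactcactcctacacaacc
Creld2: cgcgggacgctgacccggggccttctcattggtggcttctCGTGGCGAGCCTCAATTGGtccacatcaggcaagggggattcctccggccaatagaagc
Pdia6: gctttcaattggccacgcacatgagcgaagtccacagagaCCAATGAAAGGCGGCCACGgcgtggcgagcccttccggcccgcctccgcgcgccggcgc

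A promoter here is 250 bases before to 50 bases after a start site. RefSeq had one for 172 of the 222 genes at least 2-fold higher only with AP, and 31 of their 214 promoters (14.5%, Wilson 95% interval 10.4 to 19.8) held a CARE core. It was in 3 of 181 promoters (1.66%, 0.565 to 4.76) of the genes higher only with tunicamycin, of which 135 of 181 had one. Genes at least 2-fold lower only with tunicamycin held it in 14 of 318 promoters (4.4%, 2.64 to 7.25). Without the 2-fold minimum the share for genes higher only with AP was 4.59% (53 of 1154, 3.53 to 5.96). Of the 222 genes at 2-fold, 82 had no measured change in A/A cells. The share was 2.5% of 13897 promoters of the genes tested and 3.97% of all 32851 promoters in the table. Here "higher only" means called at 2-fold in that arm and not at 2-fold in the other, with a 2-fold difference called as well, so that Atf3, Chac1, Tars and Hspa5 are among them.

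The ERSE was in 9 of the 181 promoters of the tunicamycin arm (4.97%, 2.64 to 9.18) and in 0 of the 214 of the AP arm (upper bound 1.76%). Without the 2-fold minimum it was in 8 of 960 promoters of the genes higher only with tunicamycin (0.833%, 0.423 to 1.64). It was in 0.122% of the promoters of the genes tested and in 0.119% of all promoters. Besides the 6 genes shown, the other genes with it were Derl3, Ero1b and Zfp57, and Hsp90b1 held it more than once in its promoter. Derl3 was not well above background on any A/A array and so had no measured fold there. The UPRE core TGACGTGG, or CCACGTCA, which XBP1 binds, was in 1 promoter of the tunicamycin arm (0.552%), in 0 of the AP arm (upper bound 1.76%) and in 0.82% of those of the genes tested. Counting promoters of like sequence once, the CARE share was 13.9% (28 of 202) and the ERSE share 5.17% (9 of 174).

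Alg12, which rose in both arms, shares its ERSE with Creld2. The genes face away from each other and the same 19 bases lie at positions -220 to -202 from the start of Alg12. Herpud1 held a CARE core at positions -112 to -105 from its start and rose in both arms. A match is a run of letters and not a shown binding site, and a missing match concerns only these letters in this window.

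**Figure D5:**
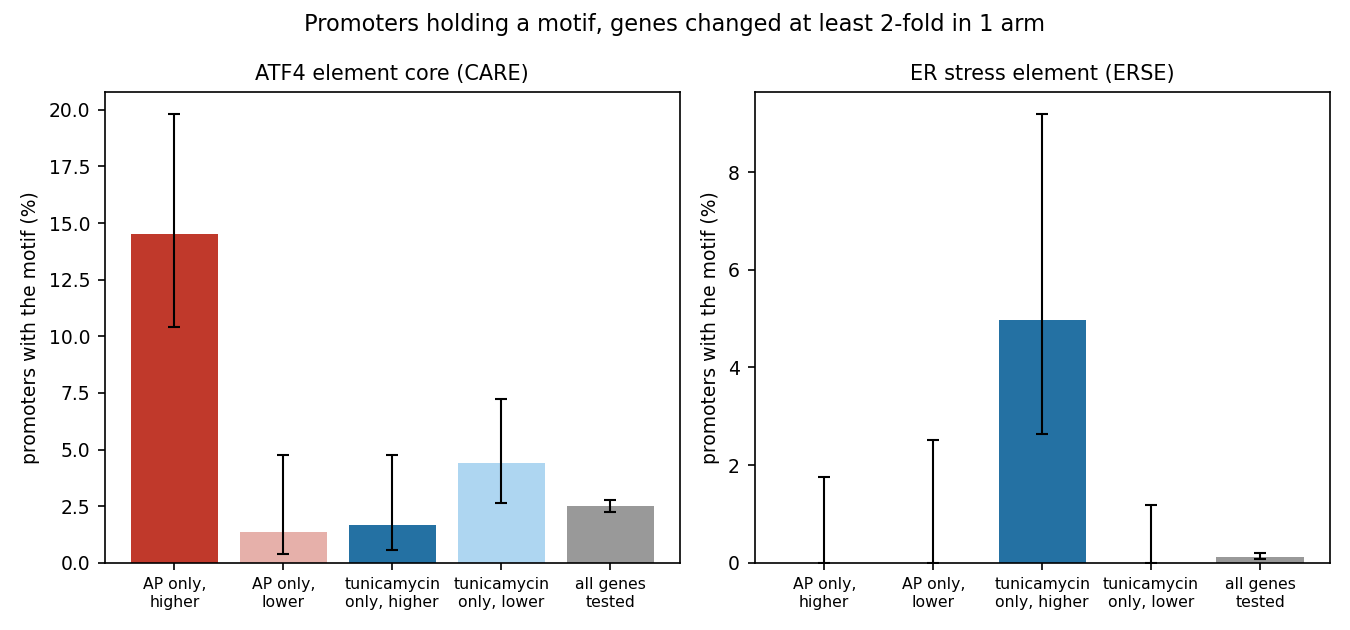
Share of promoters (percent) that hold the CARE core (left) or the ERSE (right) among genes changed at least 2-fold in only 1 arm and among all genes tested, with Wilson 95% intervals as error bars. The CARE bar is highest for genes higher only with AP (14.5%), and the ERSE bar for genes higher only with tunicamycin in A/A cells (4.97%). Intervals cover counting error only.

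The response of wild-type cells to tunicamycin, which was no part of the classes, was read for the same genes from the 24-array fit. Of the 1167 genes higher only with AP, 43.2% were also higher in wild-type cells, against 22% of all genes, and of the 626 lower only with AP 51.6% were lower there, against 16.8%. Of the 936 genes higher only with tunicamycin in A/A cells, 28.6% were higher and 18.7% lower in wild-type cells, and of the 975 lower ones 13.6% were lower and 19.5% higher. The wild-type arrays came from 2 other scan runs, within which the median wild-type change of the genes higher only with AP was 0.279 and 0.364.

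The genes that moved in opposite directions were read there as well. Of the 581 that rose with AP, 50.6% were higher and 6.02% lower with tunicamycin in wild-type cells. Of the 489 that fell with AP, 39.5% were lower and 11.5% higher. Cdsn rose by 4.50 in wild-type cells and Igfbp6 fell by 1.35, both in the direction of AP, while Igfbp4 changed by 0.29, which did not pass (limma, adjusted p = 0.566). Within the runs Cdsn changed by 4.35 and 4.65, Igfbp6 by -2.10 and -0.61, and Igfbp4 by -0.69 and 1.26, with opposite signs.

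Perk-null and Atf4-null cells under tunicamycin give further values for the same genes. Car6 rose by 10.45 in one scan run and 6.55 in the other in wild-type cells, 8.50 over both, and changed by -0.67 in Perk-null and 1.65 in Atf4-null cells, where it did not pass (limma, adjusted p = 0.863 and 0.158). Akr1b7 rose by 5.74, 6.22 and 5.25 within the runs, and changed by -1.47 and 0.75. Detection was not read for the arrays of these lines. The changes of both genes there carry no bound and may rest partly on background signal. Of the genes higher only with AP, 1.71% were higher in Perk-null and 15.2% in Atf4-null cells, where 2.04% and 12% of all genes were. Of those higher only with tunicamycin in A/A cells, 9.94% and 24% were. Sdf2l1 rose in all 3 lines, by 4.58 in wild-type, 0.93 in Perk-null and 4.77 in Atf4-null cells. The interferon list had a median of -1.546 in wild-type cells over both scan runs, opposite in sign to its 1.107 with AP. Its values within each run were not summarised, nor were its wild-type calls counted.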

How the data were processed

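Total RNA of mouse embryonic fibroblasts was labelled with Cy3 and hybridised to 1-colour Agilent arrays, 1 per sample. Per the file headers, the scanner software was Agilent Feature Extraction 10.7.1.1, and the deposited intensity values are background-subtracted and detrended processed signals with flags (other values, coded 0 or 1, deposited beside them). Promoter sequences are from RefSeq GRCm38.p6. The authors also deposited a table of log2 values. After removal of a constant per probe and per array, 99.333% of its values lay within 0.001 of the log2 signals of these arrays. The baseline of each probe in it stays unknown, and its column medians were -0.2307 and -0.1843 (untreated Fv2E-PERK), -0.1920 and -0.0773 (AP), -0.0058 and 0.0331 (untreated A/A), and 0.0417 and -0.0223 (tunicamycin).

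Here each array's log2 processed signal was taken relative to its 75th percentile, 355 to 418 in Fv2E-PERK and 255 to 296 in A/A arrays. Of 55681 probes 26576 had a gene symbol, and the brightest of a gene's probes stood for it. Genes well above background on both arrays of at least 1 group were tested, 13753 of 20141. No spot was saturated. The number of arrays limits the precision.

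Differences were tested with limma 3.58.1 in R 4.3.3 (lmFit and eBayes, two-sided, Benjamini-Hochberg within each contrast) over 4 group means, with 4 residual and 1.96 prior degrees of freedom. The 24-array fit had 10 group means and a term for the second scan run. The steps were tested on simulated data. The genes, lists and classes were chosen with earlier results of these data known. Genes named were the 10 highest and 10 lowest differences and the 8 largest changes per class and direction. The 8 largest were taken over all genes of a class and again among those above background on all 8 arrays. Up to 6 members per list and a set of UPR genes were named as well, with predicted genes counted only. Exceptions are said to be chosen after their values were seen. Alternatives were quantile normalization, normexp background, other filters, probes and thresholds, the authors' values, the 24-array fit, replicate and array row blocks, and each array left out.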

Additional observations from a re-analysis of the deposited data

Results flagged for a closer look

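Of 28 groups of 4 wild-type arrays checked, 2 held an array far from the other 3, and chance gives such a gap in about 1 group in 20. Both concern genes described above, in wild-type cells, which entered none of the classes. For Xbp1 in untreated wild-type cells the levels ran from 4.21 to 4.59, and the gap between the outermost array and its neighbour was 0.901 of that range. For Hspa5 in tunicamycin-treated wild-type cells the levels ran from 9.05 to 9.23, with a gap of 0.843 of the range.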

How the results depend on the processing

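The fit of all 24 arrays moved the counts most. It called 571 genes for the difference, 602 with AP and 735 with tunicamycin, against 5395, 4925 and 5124, and left 206 genes only with AP, 241 only with tunicamycin, 35 in both and 28 opposite. A 2-fold minimum gave 1486, 685 and 915 genes and 397, 530, 48 and 63 in the classes. With no filter on dim probes 667 genes were in both and 640 opposite. Quantile normalization, normexp background, probe means, the stricter filter and the authors' values kept each count within 1.5 times. Leaving out 1 array at a time gave 3445 to 5075 genes for the difference, 2305 to 5200 with AP and 3012 to 4905 with tunicamycin. The classes then held 928 to 1942 genes only with AP, 1190 to 1865 only with tunicamycin, 530 to 1095 in both and 434 to 963 opposite. The difference moved by over 1.5 times without AP replicate 2 (3445). The AP count did so without AP replicate 1 (2591) or 2 (2305) and without untreated Fv2E-PERK replicate 2 (3206), and the tunicamycin count without tunicamycin replicate 2 (3012). In the classes, genes only with AP moved as far without AP replicate 1 (1069) or 2 (928), and those only with tunicamycin without tunicamycin replicate 2 (1190). The genes in both fell to 550 and 530 without AP replicates 1 and 2, to 661 and 633 without tunicamycin replicates 1 and 2, and to 706 without untreated Fv2E-PERK replicate 2. The opposite genes fell to 525 and 434, to 635 and 558, and to 688 and 693 without untreated Fv2E-PERK replicates 1 and 2. The cause was not tested.

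Replicate numbers did not pair the samples, with correlations of deviations from -0.116 to 0.061 between groups over 11725 genes. With the replicate number as a block 4914 genes were called for the difference, 4317 with AP and 4551 with tunicamycin, and the classes held 1658, 1807, 891 and 839 genes. The array row as a block, chosen after seeing the data, gave 4891, 4232 and 4579. A slide block was not run, since each slide held 1 cell line.

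Of the 81 differences of named genes, 13 no longer passed with 24 arrays. No sign could change there, since that fit takes the same differences from the same arrays. With 1 array left out at a time, changes of sign were seen for 2 differences near 0 that had not passed. The difference for Xbp1 ran from -0.2065 to 0.0358, above 0 without untreated A/A replicate 1. The difference for Alg12 ran from -0.108 to 0.2247. It was -0.0711 without untreated Fv2E-PERK replicate 2, -0.0129 without AP replicate 2, -0.108 without untreated A/A replicate 1 and -0.0544 without tunicamycin replicate 1. With only the 250 bases before the start, 12.6% of promoters of genes higher only with AP held a CARE core. Genes near background carry only bounds, and 2 arrays per group leave little to estimate a spread from.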
